A study of Mus musculus with 13 samples.

Results

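H3K27ac (histone H3 acetylated at lysine 27) was measured by ChIP-seq in mouse macrophages grown from bone marrow. A set of genomic regions had its highest group mean of this mark, by a set margin, in cells given LPS together with IL-10 from the start. Other groups also marked some of these regions. A region under 20000 bp wide was included in this set when its mean log2(value + 1) with continuous IL-10 was 4 or more and exceeded the largest of the other 3 group means by 1.5 or more. This rule, which uses the deposited values themselves, found 362 of 40691 consensus regions (0.890%). The macrophages were of the IL10-/-RAG2-/- genotype on the 129S6/SvEvTac strain in every group, so they made no IL-10 of their own, and they had been grown for 5 days in M-CSF conditioned media. There were 4 groups of 3 libraries: untreated cells, cells given LPS (1 ng/mL) for 195 min, cells given LPS with IL-10 (1 ng/mL) throughout those 195 min (continuous IL-10), and cells kept in LPS for 195 min, the final 30 min of them with IL-10 (late IL-10). The replicates came from 3 independent pools of macrophages, and the sources used here do not give the number of animals per pool. An input library was not analysed here.

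IL-10 is a cytokine that restrains inflammatory gene expression in macrophages. It binds a receptor that activates the kinases JAK1 and TYK2, and these phosphorylate the transcription factor STAT3, which then enters the nucleus and binds DNA. LPS, a bacterial cell wall component, acts through TLR4 and switches on NF-kB, AP-1 and interferon regulatory factors. H3K27ac is deposited by the acetyltransferases p300 and CBP and marks active promoters and enhancers, the latter often far from the gene they act on and bound in macrophages by PU.1, AP-1 and C/EBP factors.

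Of the 21263 promoter windows of protein-coding genes in RefSeq (GRCm38.p6, the same build as mm10), each covering 250 bases before a start site and 50 from it on, 16 had their start site in a member region, and they belong to 13 genes. Shown here are 4 of them, chosen after their values were seen, because their regions are described below: 2 with large groups of members at the same gene (Zfp618 and Serpinb10), 1 at a gene with strong members (Egln3), and 1 with a STAT letter match (Rnf183). They are printed 5′ to 3′ on the gene's strand, with position 251 as the start site. Capitals mark matches, on either strand, to the letters searched: TTCNNNGAA (STAT), TGANTCA (AP-1), GAGGAA (PU.1), TTGCNNAA (C/EBP) and ACGTG (hypoxia response element), as well as an interferon response element and an NF-kB pattern, both of 10 letters. The letters are those of the reference genome, which comes from another strain than the cells.
Zfp618, chr4:62965317-62965616, plus strand: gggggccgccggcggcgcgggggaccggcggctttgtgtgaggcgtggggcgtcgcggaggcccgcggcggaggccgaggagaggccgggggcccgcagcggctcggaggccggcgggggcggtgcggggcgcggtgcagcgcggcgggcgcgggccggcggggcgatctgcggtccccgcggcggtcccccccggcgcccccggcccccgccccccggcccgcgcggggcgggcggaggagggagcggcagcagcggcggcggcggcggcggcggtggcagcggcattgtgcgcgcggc
Serpinb10, chr1:107528753-107529052, plus strand: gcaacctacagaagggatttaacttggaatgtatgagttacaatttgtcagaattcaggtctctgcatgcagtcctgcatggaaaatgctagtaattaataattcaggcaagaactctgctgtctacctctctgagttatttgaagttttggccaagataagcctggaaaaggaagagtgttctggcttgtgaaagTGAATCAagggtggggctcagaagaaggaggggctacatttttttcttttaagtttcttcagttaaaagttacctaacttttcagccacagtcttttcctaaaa
Egln3, chr12:54203825-54204124, minus strand: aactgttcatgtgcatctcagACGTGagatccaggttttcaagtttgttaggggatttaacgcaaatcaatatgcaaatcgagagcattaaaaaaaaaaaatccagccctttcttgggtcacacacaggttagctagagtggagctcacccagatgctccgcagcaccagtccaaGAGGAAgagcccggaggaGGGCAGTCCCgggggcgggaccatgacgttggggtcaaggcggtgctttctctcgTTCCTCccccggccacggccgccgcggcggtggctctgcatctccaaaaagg
Rnf183, chr4:62435201-62435500, minus strand: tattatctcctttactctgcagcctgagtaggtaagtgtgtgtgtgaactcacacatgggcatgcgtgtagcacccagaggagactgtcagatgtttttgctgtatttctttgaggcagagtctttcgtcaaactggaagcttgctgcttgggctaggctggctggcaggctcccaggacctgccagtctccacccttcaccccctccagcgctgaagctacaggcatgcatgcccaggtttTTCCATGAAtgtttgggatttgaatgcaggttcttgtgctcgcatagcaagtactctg
The Zfp618 window held no match to the 7 patterns and had a GC content of 88.0% with 59 CpG dinucleotides. The Serpinb10 window had no CpG and 1 AP-1 match at position 197. In the Egln3 window, the hypoxia response element letters began at position 22, PU.1 letters at 176 and 249, and NF-kB letters at 194. The Rnf183 window had 1 STAT match, at position 243.

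Over the 16 windows, the STAT letters occurred in 2 (12.5%), against 6.77% of the 12017 windows in any consensus region and 7.69% of all windows. AP-1 letters occurred in 2 (12.5% against 5.03% in any region) and PU.1 letters in 6 (37.5% against 26.7%). C/EBP letters occurred in 3 (18.75% against 8.43%) and NF-kB letters in 5 (31.25% against 26.7%). The hypoxia response element letters occurred in 6 (37.5% against 25.9%). The interferon response element letters occurred in none, and 3.35% of the windows in any region held them. The windows of Prss50 overlap each other, and so do those of Btbd16. Their shared PU.1, NF-kB, hypoxia response element or C/EBP letters were therefore counted more than once. With 16 windows these shares are a description of the letters only. Most members lie away from promoters, and their sequences were not examined here.

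The values are reads multiplied by 1 factor per library, with no value below 1 read, and 5149730 to 26922552 reads were recovered per library. In a given library, 19.7% to 29.9% of all regions held exactly 1 read. A region at that floor is not shown to lack H3K27ac, since reads may have been taken off before the floor was set. The floor corresponds to group means of log2(value + 1) that differ between groups, so a region at 1 read in all libraries of both groups still has a difference of 0.36 between LPS and untreated and of 0.11 between late IL-10 and LPS. Macrophage genes were strongly marked in all groups: the summed value of the regions overlapping Csf1r, the M-CSF receptor, lay between 2952 and 9763, and that over Spi1, which encodes PU.1, between 5668 and 13272. No region overlapped Mpo, Gata1 or Ly6g, markers of granulocyte precursors, erythroid cells and neutrophils, and Cd3e, of T cells, reached at most 70.6. The B cell gene Cd79a was marked in all groups, at 138 to 753. List sums take the regions of every list gene at any width, while genes are counted by regions under 20000 bp. The summed value over the whole T cell list (7 of 10 genes with such a region) was 814 to 916 with continuous IL-10 and 990 to 2107 over the other groups. That over the B cell list (3 of 7 genes) was 1725 to 3334 over all groups. The summed value over the neutrophil list (8 of 12 genes with such a region) moved with IL-10, from 5014 to 5893 with LPS to 7886 to 9031 with continuous and 9378 to 9912 with late IL-10. In untreated cells it was 4843 to 7623. Over all groups, the dendritic cell list summed to 10695 to 28753 and the fibroblast list to 6096 to 17855. The erythroid and mast cell list summed to 129 to 342, and the macrophage identity list to 109507 to 153599. No member was assigned to a neutrophil marker, and the part of other cells in the results was not tested. In these bulk samples, fewer marked cells and less mark per cell cannot be told apart.

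The chosen regions were weak to moderate in most cases and near the floor elsewhere. Their median value was 57.3, 56.5 and 41.4 in the 3 continuous IL-10 libraries. In untreated cells it was 3.53, 1.26 and 0.419, with LPS 3.94, 3.36 and 3.25, and with late IL-10 3.52, 5.38 and 10.6. Late IL-10 replicate 3 thus had the highest median outside the continuous group. Between 98 and 214 of the 362 members sat at exactly 1 read in each library outside the continuous group, against 0, 0 and 4 in the continuous libraries. The group mean with continuous IL-10 ranged from 4.01 to 10.36 on the log2 scale, with a median of 5.67, and 28 members had a mean of 8 or more. The excess over the next group had a median of 1.93 and reached 5.56, and 35 members had an excess of 3 or more. The next group was late IL-10 for 164 members, LPS for 116 and untreated for 82.

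**Figure D1:**
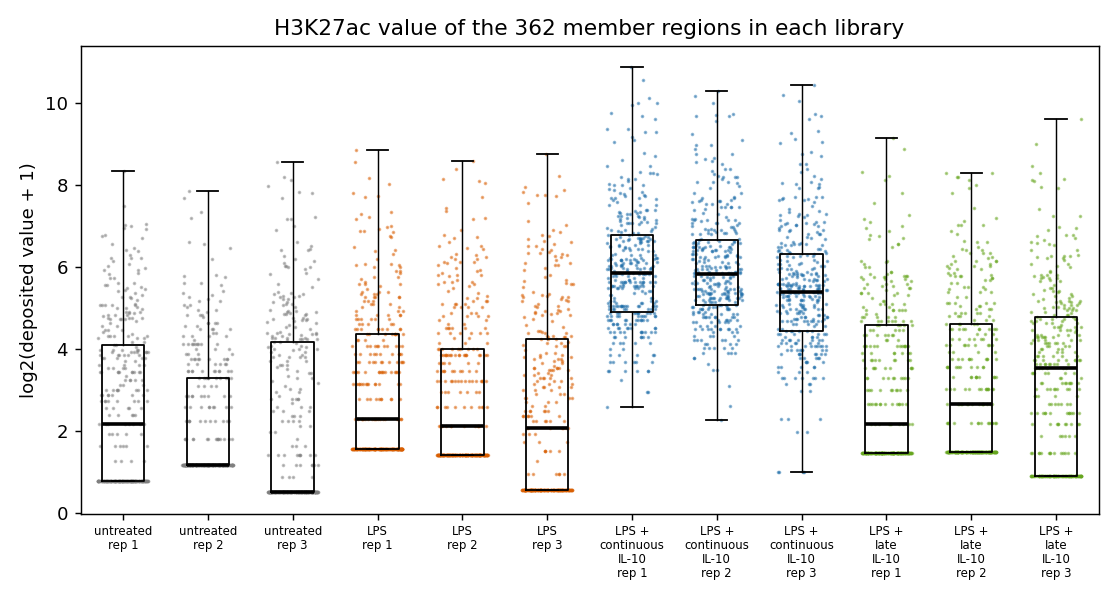
H3K27ac of the 362 members in each of the 12 libraries, as log2(deposited value + 1) on the y axis. Each point is 1 region, each box spans the quartiles with the median as a thick line, and whiskers reach the extremes. The medians of the 3 continuous IL-10 libraries lie above the upper quartile of every other library, a contrast that the choice of regions fixes, and the dense rows at the bottom are regions at 1 read.

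The libraries of the continuous group did not always separate from the rest. In 190 members (52.5%) all 3 continuous libraries lay above the other 9, which was so for 1.34% of all regions, and in the remaining 172 at least 1 other library reached into their range. Taking libraries with the same replicate number together, the continuous library was the highest of its 4 in 3 of 3 numbers for 296 members, in 2 for 63 and in 1 for 3, against 3.46% of all regions with 3 of 3. The same rule applied to each other group in turn selected 5705 regions for untreated cells, 745 for LPS and 973 for late IL-10. All 3 libraries of the chosen group lay above the other 9 in 78.1%, 31.1% and 43.3% of those. The rule used these contrasts, so the shares describe the choice. At the threshold, the members just inside were 2 regions near Hif1a and 1 near Rbm25, with an excess of 1.5003 to 1.5012, and the regions just outside lay at Etv5, Ryk and Slpi, with 1.4977 to 1.4999.

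Of the 362, 353 passed the filter on low values and entered the fit of all 36621 regions with limma. Members counted as higher with continuous IL-10 at a Benjamini-Hochberg adjusted p under 0.05 numbered 104 against LPS (3.28% of all regions were called so), 195 against untreated (11.0%) and 39 against late IL-10 (0.852%). With the replicate number as a block, these counts were 193 (7.42% of all regions), 264 (17.0%) and 143 (4.96%). There were 19 members called against all 3 groups and 128 called against none. The matching shares of all regions are not given here, so these counts have no base to be read against. The rule used these contrasts, and nothing is read from the counts. They depended on single libraries: without LPS replicate 1 or 2 the count against LPS was 61 or 49, and without continuous replicate 1, 2 or 3 it was 38, 36 or 53. Against untreated it was 129 or 112 without continuous replicate 1 or 2. Against late IL-10 it was 9, 2 or 8 without continuous replicate 1, 2 or 3, 4 or 7 without late replicate 1 or 2, 24 without untreated replicate 1, 60 without late replicate 3 and 76 without LPS replicate 3.

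The member with the largest excess lay inside Ust, which encodes a sulfotransferase that acts on the uronic acids of glycosaminoglycans (chr10:8328111-8333018). Its value was 214, 171 and 67.0 with continuous IL-10. In untreated cells it was 0.707, 1.26 and 0.419, with LPS 1.97, 1.68 and 0.464, and with late IL-10 3.52, 1.79 and 0.886. Every library outside the continuous group held at most 3 reads, and the mean of 151 ± 75.7 (SD, n = 3) was at least 36.7-fold higher than with LPS and at least 34.0-fold higher than with late IL-10. The region 77532 bp from Tm4sf1, a membrane protein of the tetraspanin-like L6 family, had the next largest excess (chr3:57203464-57208079). Its continuous values were 118, 85.1 and 31.5, and all 9 other libraries lay at 1 read. The mean of 78.2 ± 43.7 was at least 19.0-fold above LPS.

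The same picture, with the other 9 libraries at 1 read, held for a region near Syf2 (chr4:135015868-135019978; 47.2, 19.1 and 103 with continuous IL-10), and for a region near Tut7, a terminal uridylyltransferase of RNAs (chr13:59887555-59889308; 48.9, 33.0 and 45.3). It also held for a region of chromosome 2 with no protein-coding gene within 100 kb (chr2:45972160-45976050; 28.7, 47.0 and 24.6). Near Zc3h12c, of the family of the mRNA-degrading protein Regnase-1, the continuous values were 48.9, 77.5 and 35.5 and the highest other value was 3.94. A region within Phyh, the peroxisomal phytanoyl-CoA hydroxylase, had values of 70.8, 88.9 and 8.87, so that replicate 3 came close to the highest other library, untreated replicate 2 at 7.56. Akap7, which anchors protein kinase A, contained a region with 70.8, 59.7 and 46.3 against at most 5.28 elsewhere. In all, 14 of the 362 members held at most 3 reads in every library outside the continuous group. The rule holds those groups below continuous IL-10, and no such count is given for other regions.

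Other members with a large excess were marked in single libraries of other groups. In Nrg4, an EGF family ligand, the continuous values of 121, 113 and 105 stood against 29.7 in LPS replicate 3 and 21.3 in late replicate 3, with at most 3.36 elsewhere. In Btbd16 (chr7:130824073-130832179), the continuous values were 162, 87.6 and 111, and replicate 3 was again the highest with LPS (12.5) and late IL-10 (24.8). In Serpinb10, a serine protease inhibitor of myeloid cells, the region from 107558410 to 107568707 on chromosome 1 had 283, 382 and 135 with continuous IL-10. Untreated cells had 93.3, 22.7 and 0.419 there, LPS 25.6, 60.5 and 0.464, and late IL-10 17.6, 84.2 and 0.886. Replicate 3 was the lowest of each group at this region, and in each group it was at the floor except with continuous IL-10.

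**Figure D2:**
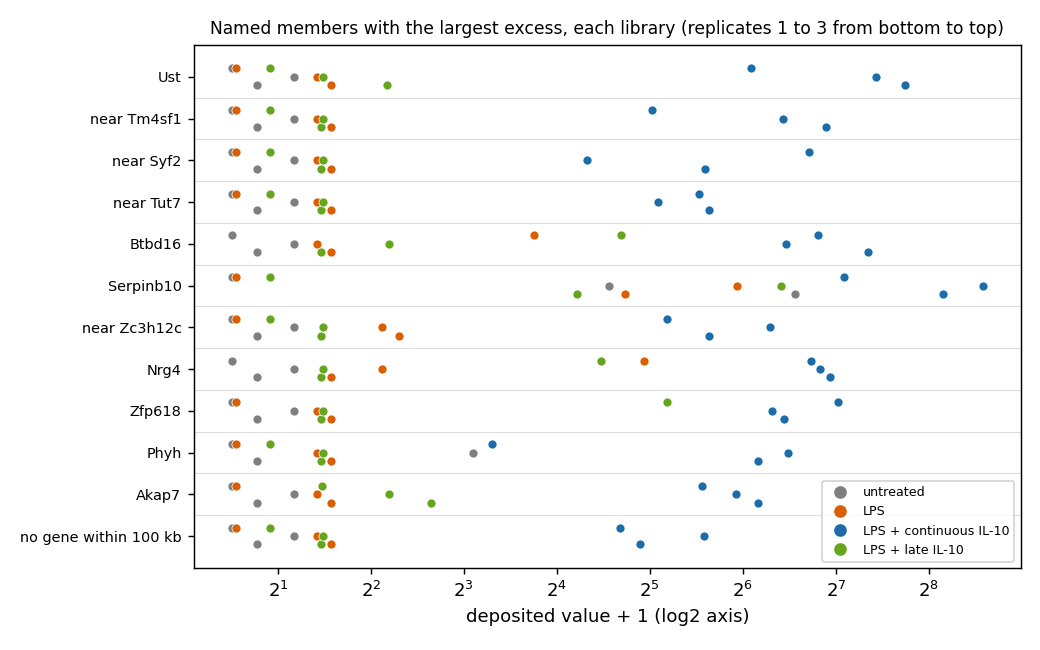
Deposited value + 1 (x, log2 axis) in each library for the 12 members with the largest excess among those where every continuous IL-10 library lies above all others. Rows are regions, named by the gene overlapped or nearest within 100 kb, and points are libraries coloured by group. The continuous points of Ust lie at 67.0 to 214, and those of Phyh reach down to 8.87.

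The highest levels were found at regions that other groups also marked. A 19890 bp region in Zfp618, a zinc finger protein gene, had 1888, 859 and 1395 with continuous IL-10. Its late IL-10 values were 474, 258 and 788, while all untreated and LPS libraries lay at 1 read. Its late and continuous libraries did not overlap, and the continuous mean of 1381 ± 515 was 2.72-fold the late mean and at least 336-fold the LPS mean. In Egln3, which encodes the oxygen-sensing prolyl hydroxylase PHD3, a region (chr12:54186194-54196638) had 1034, 1166 and 1186 with continuous IL-10. There, LPS gave 161, 385 and 435, late IL-10 93.3, 294 and 353, and untreated cells 82.7, 27.7 and 204. The continuous mean of 1128 ± 82.7 was 3.45-fold the LPS mean. Near Adcy9, an adenylyl cyclase, the continuous mean was 1135 ± 348, 3.94-fold the LPS mean. At Dtx2 and Zp3 the mean was 1068 ± 198 and the ratio to LPS 8.37. Spatc1 had 828, 827 and 831 with continuous IL-10, the closest replicates of these 6, and at most 279 in any other library. Mctp1 had a mean of 829 ± 204, with untreated (205 to 327) above late IL-10 (111 to 144).

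Some members lay near one another. A further member lay within 100 kb of 113 of them, forming 43 groups of 2 or more. No such count was made for other sets of regions, so members are not shown to lie closer together than other regions do. The largest group, of 8, was at Zfp618 (chr4:62890135-63130512). Untreated cells were at 1 read in all 3 libraries at all 8 regions, and so were LPS cells except at the promoter region, where LPS replicate 3 had 6.03. That region (chr4:62964380-62970114), which contains the promoter printed above, had 258, 295 and 334 with continuous and 44.0, 43.0 and 249 with late IL-10, so late replicate 3 came near the continuous range. In the gene body, the region from 63018601 had 148, 57.2 and 88.7 against 14.1, 10.8 and 16.8. The region from 63102049 had 86.0, 78.8 and 129 against 1.76, 1.79 and 35.4. The narrow region from 63107914 had 18.5, 24.1 and 27.6, with all late libraries at 1 read. In the regions from 63038290 and 63040739, single libraries overlapped the other group.

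The stretch between these members was also marked, but it was no member. The regions 63042912-63064022 and 63068972-63101235 had means of 2568 ± 792 and 2497 ± 858 with continuous IL-10. Late IL-10 gave 1527 ± 107 and 1411 ± 278 there, and LPS 1.37 and 9.72. A region over the upper-coordinate end of Zfp618, shared with Ambp and Kif12, had 4289 ± 1064 with continuous and 4652 ± 624 with late IL-10. The continuous mean was 7.54-fold the late mean in the member from 63102049 and lay below it in that shared region.

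**Figure D3:**
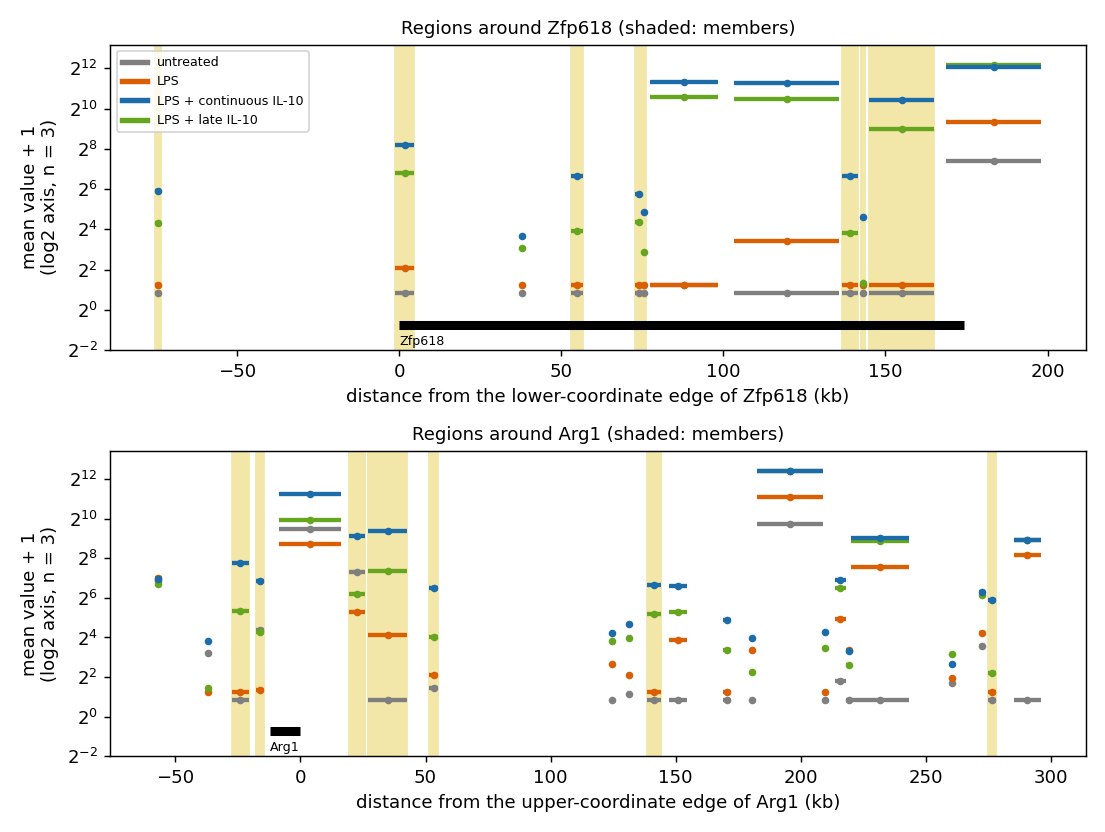
Mean value + 1 of each group (y, log2 axis, 3 libraries each) for the consensus regions around Zfp618 (top) and Arg1 (bottom). The x axis is the distance in kb from the lower-coordinate edge of Zfp618 and from the upper-coordinate edge of Arg1; horizontal lines span each region, shading marks members and the black bar the gene. In the upper panel the members flank unshaded broad regions with means of 2568 and 2497 with continuous and 1527 and 1411 with late IL-10.

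The second largest group, of 6 members, surrounded Arg1, which encodes arginase 1, an enzyme of arginine breakdown and a marker of alternatively activated macrophages (chr10:24899910-25071698). In the region from 24946746 to 24953162, untreated cells had 87.7, 163 and 227, LPS cells 33.4, 50.4 and 28.3, continuous IL-10 629, 509 and 536, and late IL-10 40.5, 69.9 and 108. No LPS library reached the untreated range, and the log2 difference of LPS from untreated was -2.00 (SE 0.53, adjusted p = 0.0104 from limma). In the next region, from 24954666, the mark was at 1 read in all untreated libraries and in LPS replicates 2 and 3. It reached 663, 554 and 783 with continuous and 104, 147 and 245 with late IL-10. Another, from 24979021, had 148, 63.5 and 56.2 against at most 28.7 elsewhere. Inside the neighbouring gene Med23, a Mediator subunit, the region from 24899910 had 292, 194 and 158 with continuous and 21.1, 57.3 and 38.1 with late IL-10, and untreated and LPS cells were at 1 read.

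A further Med23 region, chosen after its values were seen (chr10:24909896-24912987), had 169, 83.8 and 93.6 with continuous IL-10, and it holds the gene of miR-6905, whose 3p arm is printed with its seed (bases 2 to 8) in capitals because this is the miRNA gene that lies in a member.
mmu-miR-6905-3p, chr10:24910711-24910731, plus strand: aAAUAACCuuaucugcccgau
The mark says nothing of the level of this miRNA, which was not measured here. The broad region over Arg1 itself (24918917-24943845), which is no member, had means of 710 in untreated cells, 424 with LPS, 2392 ± 708 with continuous and 988 ± 117 with late IL-10.

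A group of 5 lay on chromosome 2 (chr2:46147131-46328067) with no protein-coding gene within 100 kb of any of them, and their continuous means were 22.7 to 221. Groups of 4 included 1 on chromosome 12 (chr12:54311892-54365576), also without a gene within 100 kb, and 1 at Gm5150. By gene, 4 members were assigned to Gm5150, and Serpinb10, Cacna1d, Ltbp1, Syf2 and Btbd16 had 3 each. The member within Gm5150 (chr3:16000161-16001766) had 21.9, 55.9 and 14.8 with continuous IL-10 against at most 12.6 elsewhere. At the calcium channel gene Cacna1d, 1 of 3 members had all continuous libraries above the others, with 70.8, 122 and 92.6 against at most 63.4. Ltbp1, whose product binds latent TGF-beta, also had 1 of 3 (chr17:75267154-75275275), with 555, 380 and 209. LPS replicate 1 reached 209 there as well. Regions assigned to the same gene that were no members also differed at some of these genes. Among tested non-members, 8 of 18 at Cacna1d and 3 of 3 at Gm5150 were higher with continuous IL-10 than with LPS. At Zfp618 it was 3 of 3, at Syf2 1 of 2, at Btbd16 0 of 1 and at Ltbp1 0 of 11. Of all regions, 3.28% were called so. The genes were taken for their members, which this contrast chose, so the counts are a description.

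The non-member regions nearest to the members showed the same direction. Of 234 such regions within 10 kb, 218 were tested, and 39 (17.9%) were higher with continuous IL-10 than with LPS, against 3.28% of all regions, while 0 were lower. Their median log2 difference was 1.09, and 196 were above 0. These neighbours come from the same libraries as the members they adjoin, so they are a description of how far the pattern extended.

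Members were assigned to 273 protein-coding genes, 8 with 3 or more. Among the gene lists, the genes of alternative activation held the most, at 4 of its 19 genes with a region under 20000 bp (21.1%, against 1.89% of all 14448 such genes). These were Arg1, F13a1, Stab1 and Tgfbr2, with 8 members together. F13a1, coagulation factor XIII A, had 62.4, 74.9 and 64.1 with continuous IL-10 in its stronger region (chr13:37018992-37021959), and 41.3 in LPS replicate 1, the highest other library. Stab1, a scavenger receptor, shares its region with Nt5dc2 (28.7, 52.1 and 35.5, against at most 13.9). A broad region overlapping Stab1 (chr14:31151529-31201630), which is no member, was highest in untreated cells. Its means were 10110 untreated, 4124 with LPS, 6755 with continuous and 2023 with late IL-10. Tgfbr2, the type II TGF-beta receptor, had a region (chr9:116082225-116087486) with 312, 475 and 522, where untreated cells already had 94.5 to 121 and LPS cells 49.2 to 146. Tested non-members were higher with continuous IL-10 than with LPS in 7 of 11 cases at F13a1 and 1 of 1 at Arg1. At Stab1 it was 0 of 1 and at Tgfbr2 0 of 7. Over all 89 tested regions of the list, 16 were higher with continuous IL-10 than with LPS and 0 lower (3.28% and 3.24% of all regions), with a median of 0.65, beside a median of 0.02 over all regions. The 8 members are among these regions and were chosen by that contrast.

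In the interferon response list, the member in Ifih1, an RNA sensor, overlapped the other groups: continuous IL-10 gave 15.2, 16.5 and 30.6 and late replicate 3 reached 25.7. Over the 54 tested regions of the list, 3 were higher and 12 lower with continuous IL-10 than with LPS (3.28% and 3.24% of all regions), with a median of -1.59.

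No member was assigned to the 17 IL-10 and STAT3 target genes with a region under 20000 bp, nor to the 15 such inflammatory cytokine genes. Genes with only wider regions could hold no member. Over each whole list, tested regions of any width were counted. At IL-10 and STAT3 targets, 11 of 79 were higher with continuous IL-10 than with LPS and 1 lower (3.28% and 3.24% of all regions). At inflammatory cytokine genes, 0 of 63 were higher and 15 lower, beside the same shares of all regions. None lay at the lists of the NF-kB pathway, macrophage identity, lipid metabolism or immediate early genes, or at markers of T cells, B cells, dendritic cells, fibroblasts, or erythroid and mast cells.

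The rule did not set the difference between untreated and LPS cells itself. Of the 353 tested, 20 were higher with LPS (16.5% of all regions were) and 5 lower (17.9% of all regions), or 47 (24.1%) and 7 (24.9%) with the replicate block. The rule holds both groups at least 1.5 below continuous IL-10, which leaves many members at the floor, and the counts are a description. By size alone, 120 members (33.1%) had a difference above 1 and 55 (15.2%) below -1, against 28.9% and 32.1% of regions under the width limit. The median difference was 0.36, the value that 2 groups at the floor give. Without LPS replicate 3 the count of higher members was 40, and without untreated replicate 1, 2 or 3 it was 8, 13 or 10. It was 13 without LPS replicate 2 or continuous replicate 2. Without untreated replicate 2 the count of lower members was 9, and without LPS replicate 2 or continuous replicate 2 it was 3.

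Of the 20 members that rose with LPS, 0 were also called higher with continuous IL-10 than with LPS by limma. Of the 5 that fell with LPS, 5 were, beside 3.28% of all regions. Both comparisons share the LPS libraries and the rule used the second one, so nothing is read from these counts. For that step only values are given below. The 20 included regions near Hif1a, the oxygen-regulated transcription factor that EGLN enzymes hydroxylate, and near the incretin gene Gip. The region near Hif1a (chr12:73948514-73951370) had 0.707, 1.26 and 5.02 in untreated cells, 19.7, 77.3 and 77.0 with LPS and 157, 187 and 95.6 with continuous IL-10. Its late IL-10 values were 7.04, 129 and 66.4, overlapping both. The LPS difference was 4.14 (SE 1.04, adjusted p = 0.00764 from limma). The largest difference of this kind, 4.79 (SE 0.84, adjusted p = 7.58e-04 from limma), was at a region of chromosome 12 with no gene within 100 kb (chr12:54480561-54490768). It had 157, 109 and 93.2 with LPS, against at most 19.3 in untreated cells, and 440, 434 and 285 with continuous IL-10. A region near Btbd16 (chr7:130833431-130848773) had 262, 267 and 300 with LPS, 280, 280 and 282 with late IL-10, and 1121, 822 and 559 with continuous IL-10. In Triobp, an actin-bundling protein gene, LPS gave 3.94, 48.7 and 44.5 over a floor of 1 read in untreated cells, and continuous IL-10 gave 91.1, 145 and 76.9.

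Members that fell with LPS included the Arg1 region above and regions at Pam, Smad7, and Prss46 with Prss50. Near Smad7, an inhibitor of TGF-beta signalling, untreated cells had 31.1, 15.1 and 36.4, all LPS libraries were at 1 read, and continuous IL-10 gave 167, 57.2 and 123 (LPS against untreated -3.57, SE 0.91, adjusted p = 0.00799 from limma). In Pam, a peptide-amidating enzyme, the values were 32.5, 31.5 and 18.0 untreated, 1.97, 1.68 and 3.71 with LPS, and 55.6, 141 and 67.0 with continuous IL-10. At the serine protease genes Prss46 and Prss50, LPS replicate 3 (65.4) lay within the untreated range of 27.7 to 224 (-3.25, SE 1.14, adjusted p = 0.0409 from limma). At these 4 regions the continuous libraries lay above the untreated ones, but single comparisons with untreated were used by the rule and are not tested.

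Between late IL-10, given for the final 30 min, and LPS, few members passed the test. Late IL-10 was higher at 6 (3.14% of all regions) and lower at 1 (0.396% of all regions), or 17 (6.17%) and 1 (1.92%) with the block, and the median difference was 0.11, again that of 2 groups at the floor. By size alone, 94 members (26.0%) had a difference above 1 and 47 (12.98%) below -1, against 14.6% and 15.6% of regions under the width limit. The rule held both groups below continuous IL-10. The 6 were the Zfp618 promoter region and its 19890 bp region, the regions described above in Med23 and beside Arg1, 1 near Akap7 and 1 near Lrig2. At the 19890 bp Zfp618 region the difference was 7.66 (SE 0.70, adjusted p = 7.09e-05 from limma), and at the Zfp618 promoter region it was 4.37 (SE 0.86, adjusted p = 0.0110 from limma). The region near Akap7 (chr10:25066081-25071698) had 22.9, 48.4 and 34.5 with late and 105, 88.9 and 103 with continuous IL-10, with untreated and LPS at 1 read. The 1 lower member, near Lrrc8d, a volume-regulated anion channel subunit, had 21.6, 11.8 and 26.4 with LPS and 1.76, 1.79 and 1.77 with late IL-10 (-2.85, SE 0.72, adjusted p = 0.0469 from limma). Untreated cells had 12.7, 13.9 and 22.2 there, and continuous IL-10 62.4, 49.5 and 61.1. This call was lost without any 1 library other than late replicate 3. The late and continuous comparisons share the LPS libraries.

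The positions of members were not used by the rule. A protein-coding gene overlapped 186 members (51.4%), 134 more had one within 100 kb and 42 had none, whereas 67.2% of all regions under the width limit overlapped a gene. Of the 352 members with a start site on their chromosome in the promoter table, 13 (3.69%) covered one, against 21.6% of all regions under the width limit and 10.2% of the 8348 regions whose highest group mean, in any group, lay between the quartiles of the members' continuous IL-10 means (4.81 to 6.49 on the log2 scale). Regions high only after late IL-10 covered one in 5.65%. Members over 10 kb from any start site made up 81.3%, against 64.8% of all and 79.5% of the late-only regions. The median distance was 37038 bp for members, 42438 bp for late-only regions and 22735 bp for all. The widths were similar, with medians of 2691 bp and 2916 bp for members and all regions under the limit.

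**Figure D4:**
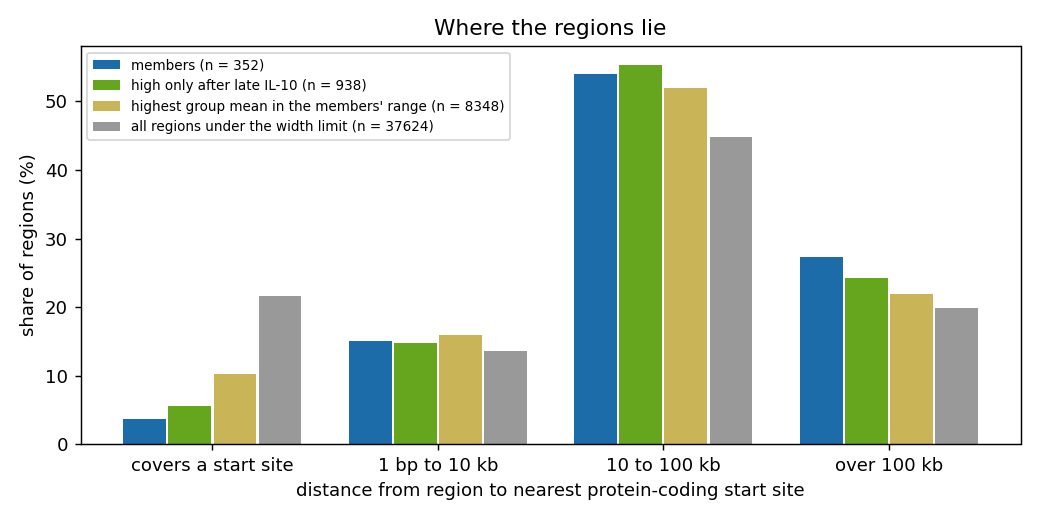
Share of regions (y, %) by distance to the nearest protein-coding start site (x), for the members, the regions high only after late IL-10, regions whose highest group mean lay between the quartiles of the members' continuous means, and all regions under the width limit. Members cover a start site in 3.69% of cases and all regions in 21.6%.

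The members that cover a promoter differed in how cleanly the groups separated. In the Rnf183 region (chr4:62431873-62435842), at a membrane-bound ubiquitin ligase gene, continuous IL-10 gave 48.9, 76.2 and 92.6, and LPS replicate 3 (41.3) and late replicate 3 (30.1) were the highest others. The region at the Egln3 promoter (chr12:54200768-54205163) had 133, 282 and 246 with continuous IL-10, but LPS replicate 3 reached 248 while LPS replicates 1 and 2 had 1.97 and 8.40. At the Serpinb10 promoter (chr1:107519352-107529937) the continuous values of 273, 431 and 152 overlapped LPS replicate 2 at 173. These 3 regions were named for their printed promoters after their values were seen. At the Serpinb10 promoter region the means were 56.2 untreated, 99.8 with LPS, 285 with continuous and 80.5 with late IL-10. At the Zfp618 promoter region they were 0.795, 3.23, 296 and 112, in the same order.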

How the data were processed

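H3K27ac immunoprecipitates of 12 libraries (4 groups of 3) were analysed. Per the submitters' processing notes, the tools were Bowtie2, DiffBind, MACS2 and Trim Galore with mm10, whose roles, order and versions are not known here. The authors deposited a signal value for each library and each of 40691 consensus regions. All values (100%) were whole multiples of the smallest value in their library, with a tolerance of 0.0001, so reads could be recovered, and 1 read was the minimum. The sources used here do not say if background or input was subtracted.

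The members and the gene lists were chosen with earlier results of these data known. Values are means ± SD. limma 3.58.1 (R 4.3.3), with trend and robust moderation, was fitted to log2(value + 1) with group as the single term, over all 12 libraries and the 36621 regions above the 10th percentile of the mean, with Benjamini-Hochberg adjustment and a threshold of 0.05. The design named a count test for counts. As the deposited unit is a scaled signal, edgeR 4.0.16 and DESeq2 1.42.0 on recovered reads served as alternatives. Folds against a group with at most 3 reads in every library are lower bounds against 3 reads per library, for the deposited values only. The scripts were first tested on simulated data.

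Deviations of libraries with the same replicate number correlated between 0.0993 and 0.712 over 18 pairs, and 11 of 12 libraries were highest with their own number. As the series' design names 3 pools, libraries with the same number were treated as paired in the fits with the replicate block, although the lowest pair was just under 0.1. The main limma fit used no pairing, and every SE and adjusted p printed here comes from that unpaired fit. Genes and promoters come from RefSeq tables of GRCm38.p6. Regions were assigned to every overlapping protein-coding gene and, failing that, to the closest one up to 100 kb away. Named were the 12 members with the largest excess and the 6 with the highest level (all continuous libraries above the other 9), genes with 3 or more members, members at list genes, 3 regions on each side of the threshold, and up to 5 members per direction called between LPS and untreated or late IL-10 and LPS. Members chosen otherwise are marked so. Some results that this rule covers are not reported here. An exact permutation test of 3 against 3 cannot go below p = 0.1 and was not used.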

Additional observations from a re-analysis of the deposited data

How the results depend on the processing

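The number of regions that met the rule was 362. It was 241 with a pseudocount of 4 (234 of them among the 362), 417 with 0.25, 504 with median centring, 810 with an excess of 1, 168 with an excess of 2 and 364 with no width limit, and between 334 and 622 without 1 library. With the replicate block, members called by limma went from 104 to 193 for continuous IL-10 above LPS, from 39 to 143 above late IL-10, from 20 to 47 for LPS above untreated and from 6 to 17 for late IL-10 above LPS. With edgeR on recovered reads, 62 members were higher than with LPS, 17 higher than with late IL-10 and 48 higher with LPS than untreated. With DESeq2 these were 136, 81 and 66, with 13 lower with LPS than untreated and 24 higher with late IL-10 than LPS. A pseudocount of 4 gave 60 above late IL-10, and median centring 3 lower with LPS than untreated. The 1 member lower with late IL-10 than LPS became 0 with a pseudocount of 4, no filter or median centring in limma, and stayed 1 with edgeR and DESeq2. Without 1 library at a time, continuous IL-10 was called higher than LPS at 36 to 118 members, than untreated at 112 to 228 and than late IL-10 at 2 to 76. LPS was higher than untreated at 8 to 40 and lower at 3 to 9, and late IL-10 was higher than LPS at 4 to 9 and lower at 0 to 1. Of 34 named members called against LPS, 18 kept the call under every alternative. Their sign is set by the rule and is no sign of stability. The cause of these changes was not tested. Shares called among all regions are given only for limma on all 12 libraries, with and without the replicate block. Counts of called members from the other settings, here and above, thus have no base to be read against.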
